A study of Mus musculus with 12 samples.

Results

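Gene expression was compared between the arrays numbered 1 and the arrays numbered 2 among those labelled without dexamethasone (Dex), which are 6 of the 12 arrays of the series. The arrays were placed in sets by their labels: unstimulated 1, IL-9 1 and CCL1 1 form set 1, and unstimulated 2, IL-9 2 and CCL1 2 form set 2, so that each set holds 3 arrays and the sets form 3 pairs matched by cytokine. All arrays carried total RNA of BW5147, a mouse thymic T lymphoma line, kept for 8 h without addition, with interleukin-9 (IL-9, 100 U/ml, a T cell cytokine) or with the chemokine CCL1 (100 U/ml, the ligand of the receptor Ccr8). The other 6 arrays, used here for comparison, had the same cytokine conditions with Dex, a synthetic glucocorticoid, at 100 ng/ml, and are called the Dex arrays, again numbered 1 and 2. The only sample source is this 1 cell line. The labels give 2 arrays per group and do not say whether equal numbers mark separate cultures, a shared day or a shared RNA preparation, so the p-values rest on array-to-array spread alone, part of which may be technical. The array CCL1 2 was deposited apart from the other 11, under another array type with the same probe sets. Signals are those of the MAS5 algorithm on a linear scale, and differences are log2 differences of signal + 16, set 1 minus set 2, averaged over the 3 pairs with their standard error (SE). P-values come from limma, were adjusted by the Benjamini-Hochberg method across 13575 probe sets, and led to a call when under 0.05. The number of arrays limits the precision.

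Glucocorticoids enter the cell and bind the glucocorticoid receptor, a ligand-activated transcription factor encoded by Nr3c1, which then moves to the nucleus and activates or represses genes. In thymocytes and T lymphoma cells the activated genes include Tsc22d3, which encodes the leucine zipper protein GILZ, Dusp1, which encodes a phosphatase that switches off MAP kinases, and Fkbp5, which encodes a co-chaperone that dampens the receptor itself. Prolonged exposure drives such cells into apoptosis, for which the BH3-only protein Bim, encoded by Bcl2l11, is known.

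The labels of set 1 and the level of glucocorticoid targets in it did not go together. The list of 43 glucocorticoid targets had 30 members above the filter on low signals, and their mean level, centred over the 12 arrays on the log2 scale, was 0.23 in unstimulated 1, 0.23 in IL-9 1 and 0.12 in CCL1 1. In set 2 it was -0.46 in unstimulated 2, -0.42 in IL-9 2 and -0.54 in CCL1 2. The 6 Dex arrays lay between 0.0012 and 0.21, so set 1 sat with the Dex arrays and set 2 below all of them. The list was chosen with earlier results of these arrays known, so this order is a description and not independent evidence. Every comparison of the sets rests on the 3 arrays of set 1, which are named throughout by their labels. Markers of T cells were present at like levels in both sets: 6 of 8 listed genes passed the filter, and the summed signal of those on the array was 5515 to 6265 in set 1 and 5671 to 6210 in set 2. Markers of B and erythroid cells had 0 members above the filter, with summed signals of 8.52 to 31.0 and 1.05 to 5.11 over the 6 arrays. Of 7 myeloid markers 3 passed, with summed signals of all 7 of 33.8 to 56.9 over the 6 arrays, and of 5 fibroblast markers 1 passed, with sums of 8.07 to 30.5. The pairs were alike in spread, with a median absolute difference of 0.19, 0.20 and 0.21 log2 in the unstimulated, IL-9 and CCL1 pairs, and no probe set had identical values in both arrays of a pair. In the Dex arrays the pair of Dex alone stood apart, with 4.91% of probe sets differing by over 1 log2 against 0.199% and 0.943% in the other Dex pairs and 1.02% to 1.14% in the pairs without Dex.

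Between the sets 253 of 13575 probe sets were called (1.86%), 151 higher in set 1 (1.11%) and 102 lower (0.751%). All 253 had the same direction in the 3 pairs, against 34% of all probe sets, and in 230 of them (90.9%) the 3 signals of each set did not overlap, against 15.8% of all probe sets. Represented by 1 probe set each, 147 of 7534 genes were called (1.95%), 89 higher (1.18%) and 58 lower (0.77%). The rises were larger than the falls: the median was 0.88 log2 for genes that were higher and -0.62 for those that were lower, and 60 of the 151 higher probe sets but 6 of the 102 lower ones differed by at least 1 log2. Of the 147 genes, 134 were not in the glucocorticoid list. The count was 772 without the unstimulated pair, 222 without the IL-9 pair and 238 without the CCL1 pair, the pair that spans the 2 array types. With each array centred on its median, 155 probe sets were higher and 51 lower, so the balance of directions moved with the scaling. In bulk RNA a change in every cell and a change in some of the cells cannot be told apart.

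The same comparison of number 1 with number 2 was then made in the 6 Dex arrays, which share no array with the sets. No probe set was called there (0%), with 1779 at an unadjusted p under 0.05 by the same limma test and 0.0754 as the smallest adjusted p. The count was 22 after median centring, 1 with 1 probe set per gene, 2 in the model of all 12 arrays, 90 without the Dex pair and 199 without the Dex+IL-9 pair. Of the 253 probe sets called between the sets, 199 (78.7%) had a mean difference of the same sign in the Dex arrays, against 57% of all probe sets. In the higher direction 117 of 151 shared the sign (77.5%) and in the lower 82 of 102 (80.4%). At least 50% of the size was reached by 30 of the 151 and 40 of the 102, against 43.1% of all probe sets. All 3 Dex pairs had the sign of the sets' difference for 62 of the 151 and 52 of the 102, against 23.1% of all probe sets, while 37.5% of all probe sets had 3 Dex pairs of 1 direction, whichever it was. The genes higher in set 1 had a median of 0.88 log2 without Dex and 0.14 in the Dex arrays (0.14 without the Dex pair), whereas the genes lower in set 1 had -0.62 and -0.23 (-0.24 without the Dex pair). A sign shared by all 3 Dex pairs together with at least 50% of the size was seen for 63 of the 253 (24.9%) and for 21.6% of all probe sets, a share near the background, so the genes given below with such a difference are described singly.

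**Figure D1:**
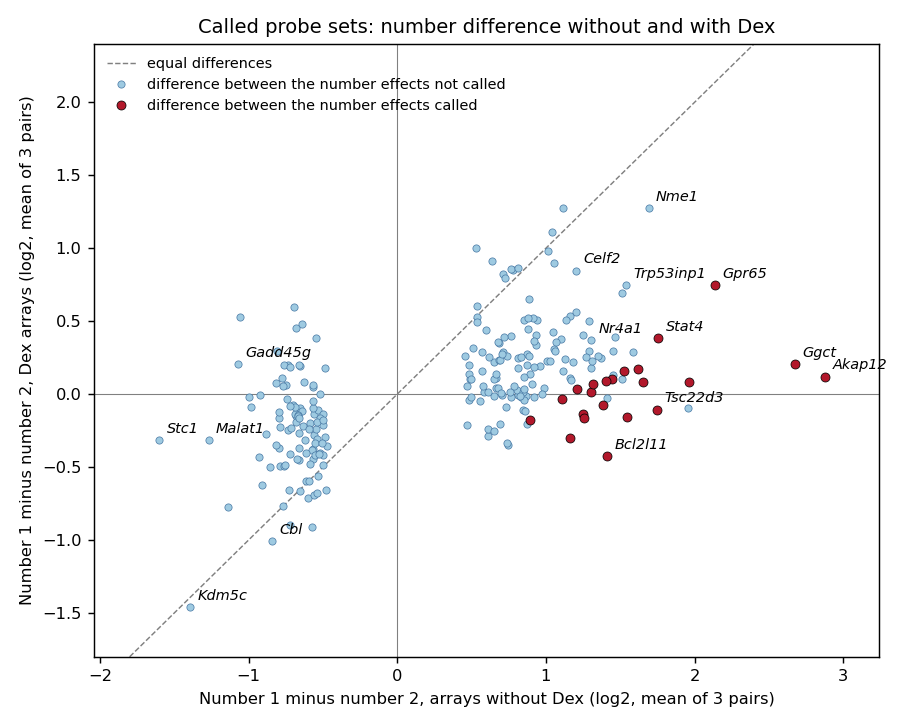
Each point is 1 of the 253 probe sets called between number 1 and number 2 without Dex. The x axis is the log2 difference of the arrays without Dex and the y axis that of the Dex arrays, each the mean of 3 pairs; red points (22) have a called difference between the number effects, and the dashed line marks equal differences. Akap12 and Ggct lie far to the right near 0 on the y axis, whereas Kdm5c and Cbl lie near the dashed line.

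The 4 markers of the receptor's activity separated the sets without overlap. Tsc22d3 had signals of 347, 230 and 330 in unstimulated 1, IL-9 1 and CCL1 1 and of 109, 58.7 and 70.8 in the matching arrays of set 2, a difference of 1.75 log2 (SE 0.12, adjusted p = 9.44e-06). The lowest array of set 1 was thus above the highest of set 2. Its 6 Dex arrays lay between 260 and 422. Of the 3 probe sets of Tsc22d3 2 were called, the lowest being at 0.27. Akap12, which encodes a scaffold for protein kinase A, had the largest difference of all genes: 244, 180 and 182 in set 1 against 16.8, 10.7 and 13.1 in set 2, or 2.88 log2 (SE 0.14, adjusted p = 3.43e-07). Dusp1 was at 228, 243 and 166 against 62.9, 59.1 and 65.4, a difference of 1.52 (SE 0.14, adjusted p = 7.5e-05). Fkbp5 was at 767, 652 and 637 against 306, 348 and 277, a difference of 1.11 (SE 0.11, adjusted p = 0.000148). In the Dex arrays, number 1 minus number 2 was -0.11 for Tsc22d3, 0.12 for Akap12, 0.16 for Dusp1 and -0.03 for Fkbp5, none of them called; without the Dex pair these were -0.03, -0.04, 0.25 and 0.03.

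Of the 30 glucocorticoid targets above the filter 13 were called higher in set 1 (43.3%, against 1.18% of all genes) and 0 lower, with 17 higher and 5 lower at an unadjusted p under 0.05, and their median difference was 0.49 against -0.016 over all genes. Over all genes, 454 (6.03%) were higher and 605 (8.03%) lower at an unadjusted p under 0.05, or 14.1% in both directions. The list was chosen with earlier results of these arrays known and is not independent evidence of its direction. Ggct, which encodes an enzyme of glutathione breakdown, had 996, 730 and 972 in set 1 and 134, 101 and 147 in set 2, a difference of 2.67 log2 (SE 0.10, adjusted p = 3.62e-08), the smallest p among the named genes. Gpr65, a proton-sensing receptor of lymphocytes, was at 481, 313 and 480 against 109, 62.9 and 80.3, a difference of 2.14. Bcl2l11, the gene of Bim, was at 420, 330 and 338 against 153, 95.5 and 134, a difference of 1.41, and all 5 of its probe sets were called. The sets did not overlap for any of these 3 genes. The other called members were Gadd45a, a growth arrest and DNA damage gene (1.21), Rgs2, a brake on G protein signalling (1.13), Pik3r1, the regulatory subunit of PI3 kinase (1.10), Nfkbia, the inhibitor of NF-kB (0.89), Ddit4, an inhibitor of mTORC1 (0.89), and Txnip, a thioredoxin-binding regulator of glucose uptake (0.87). Of the 4 probe sets of Nfkbia 3 were called, the lowest being at 0.12. The median of the whole list in the Dex arrays was 0.0012.

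**Figure D2:**
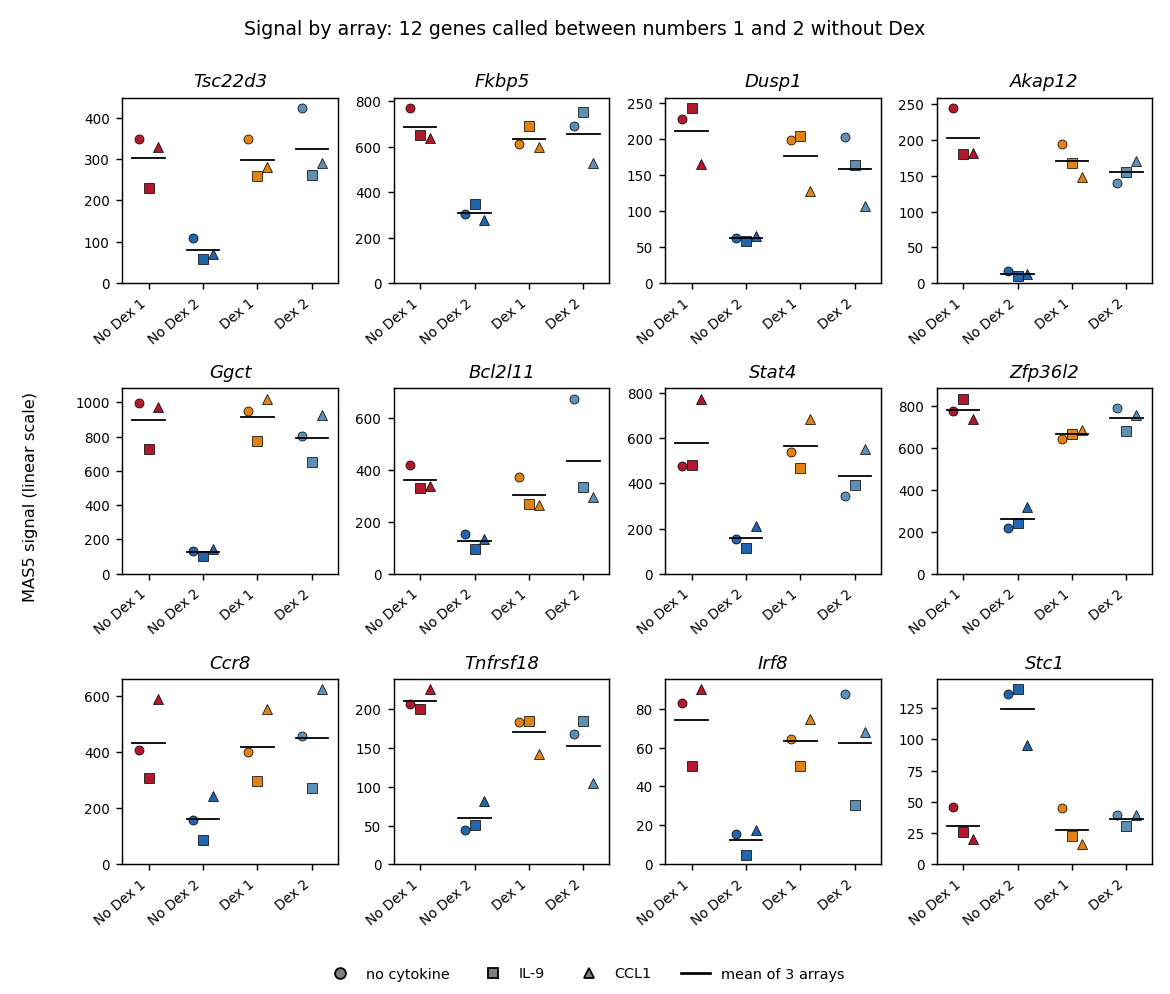
MAS5 signal (linear axes that start at 0) of 12 called genes in the arrays without Dex numbered 1 and 2 and the Dex arrays numbered 1 and 2. Each symbol is 1 array (circle no cytokine, square IL-9, triangle CCL1) and each line the mean of 3 arrays; in 11 panels No Dex 2 lies below the other sets, with Akap12 at 10.7 to 16.8 there, and in the panel of Stc1 it lies above them, at 95.7 to 140.

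The promoter of Tsc22d3 is shown because its 250 bases before the start hold the half-site of the glucocorticoid response element, AGAACA, here on the opposite strand as TGTTCT in capitals, 179 bases before the start. The sequence is that of RefSeq, GRCm38.p6, chrX:140600523-140600772, minus strand.

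Tsc22d3: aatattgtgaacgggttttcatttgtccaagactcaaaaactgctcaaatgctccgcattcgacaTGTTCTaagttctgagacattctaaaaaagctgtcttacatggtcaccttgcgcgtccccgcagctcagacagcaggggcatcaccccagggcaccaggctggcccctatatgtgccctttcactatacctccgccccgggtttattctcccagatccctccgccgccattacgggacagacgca

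Among the called glucocorticoid targets, Tsc22d3 was the only one found with a match in the windows searched. A match of 6 letters is common. Of the 27025 genes with a promoter in the table, 18.2% held AGAACA on either strand, against 11 of 87 matched genes called higher (12.6%) and 8 of 72 called lower (11.1%).

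Beyond the list, the rises included genes of T cell signalling, receptors and ligands. Stat4, the transcription factor of the interleukin-12 response, had signals of 479, 484 and 775 in set 1 and 156, 113 and 212 in set 2, a difference of 1.76 log2 (SE 0.11, adjusted p = 5.13e-06). Its Dex arrays were at 538, 468 and 688 in number 1 and 346, 395 and 552 in number 2, so that all 6 lay above set 2. Tnfrsf18 encodes GITR, a receptor of the tumour necrosis factor family that takes its name from induction by glucocorticoid. It was at 207, 200 and 226 against 44.9, 51.4 and 81.4, a difference of 1.62 (SE 0.13, adjusted p = 3.23e-05). Ccr8, the receptor for CCL1, was at 405, 306 and 590 against 159, 86.9 and 243, a difference of 1.38 (SE 0.11, adjusted p = 3.23e-05). In both sets the CCL1 array was the highest and the IL-9 array the lowest for Ccr8, and its Dex arrays had the same order, from 271 to 623.

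Tnfsf14, the ligand LIGHT of the same tumour necrosis factor family, was at 79.5, 87.7 and 34.9 against 11.8, 18.6 and 11.9 (1.41 log2, adjusted p = 0.00163). Its CCL1 array was the lowest of set 1 and still above the highest of set 2. Ptpn22, a phosphatase that restrains T cell receptor signalling, was at 316, 286 and 356 against 123, 105 and 126 (1.32, adjusted p = 2.79e-05). Cytip, which encodes a cytohesin-binding protein that limits T cell adhesion, was at 793, 1067 and 862 against 244, 410 and 327 (1.45, adjusted p = 1.72e-05). For both genes the sets did not overlap. Irf8, an interferon regulatory factor, was at 82.8, 50.4 and 89.9 against 15.6, 4.93 and 17.5 (1.66, adjusted p = 0.000107), with the IL-9 array the lowest in each set. Nr4a1, an immediate target of antigen receptor signalling, was at 34.1, 29.0 and 87.1 against 7.21, 11 and 8.49 (1.31, adjusted p = 0.0102). CCL1 1 stood above its partners and the rise was seen in 3 of 3 pairs. Il10 had 14.9, 117 and 10.1 against 1.49, 5.91 and 5.72, so that it was high in the 1 array IL-9 1. All 3 signals of set 2 lay below the filter of 6.50, and no size is given for its difference. It was not called (adjusted p = 0.0913); without the unstimulated or the CCL1 pair it was, and without the IL-9 pair the adjusted p was 0.48.

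A further group of rises was more mixed in function. Zfp36l2, which encodes an mRNA decay factor that holds thymocytes in quiescence, had 775, 832 and 736 in set 1 and 218, 243 and 319 in set 2, a difference of 1.55 log2 (SE 0.12, adjusted p = 3.11e-05). Plaur, the urokinase receptor, differed by 1.58, Trp53inp1, a stress protein of the p53 pathway, by 1.54, and Csn3, the gene of the milk protein kappa-casein, by 1.47. Pacs2, a membrane sorting protein, differed by 1.37, Hif3a, a member of the hypoxia-inducible factor family, by 1.31, Galc, a lysosomal galactosylceramidase, by 1.25, and Tpst2, a tyrosylprotein sulfotransferase of the Golgi, by 1.16. Csn3 had signals of 46.1 to 61.2 in set 1 and of 5.76 to 12.2 in set 2. In each of these 8 genes the sets did not overlap, and the adjusted p lay between 3.11e-05 for Zfp36l2 and 0.00175 for Hif3a. Second probe sets that were not called had 0.20 for Hif3a, 0.56 for Galc, 0.60 for Trp53inp1 and 0.63 for Zfp36l2.

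The Dex difference was set beside these rises within each number; these differences use the same arrays of set 2 and are given as values only. Dex minus no Dex in number 2 was 1.35 ± 0.30 for Stat4, 1.41 ± 0.09 for Ccr8, 1.16 ± 0.74 for Tnfrsf18, 1.47 ± 0.29 for Zfp36l2 and 1.23 ± 0.24 for Cytip (log2, SD, n = 3 pairs). The same quantity in number 1 was -0.02 ± 0.17, -0.05 ± 0.04, -0.29 ± 0.27, -0.23 ± 0.11 and -0.11 ± 0.03. Over the 89 genes called higher, the median of Dex minus no Dex was 0.72 in number 2 and -0.078 in number 1, and over the 58 called lower it was -0.36 and 0.012. The difference in number 2 contains the signals of set 2 and is no further evidence on the sets.

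Whether the number difference itself depended on Dex was tested in 1 model of all 12 arrays. The difference between the number effects, no Dex minus Dex, was called for 22 probe sets (0.162%), all above 0 and all among the 253; 0 were called below 0, with 706 below 0 at an unadjusted p under 0.05 in limma. These were 18 genes (0.239% of genes), 9 of them in the glucocorticoid list. Outside the list they were Zfp36l2 (1.70 log2, SE 0.18, adjusted p = 0.00166), Irf8 (1.57), Tpst2 (1.46), Ccr8 (1.46, SE 0.17, adjusted p = 0.00281), Tnfrsf18 (1.45), Galc (1.42), Stat4 (1.37, SE 0.17, adjusted p = 0.0047), Cytip (1.34) and Ptpn22 (1.25). Tnfsf14 (1.43, adjusted p = 0.0759), Plaur (1.30, adjusted p = 0.0976) and Nr4a1 (0.94, adjusted p = 0.471) were not called. Without unstimulated 1 the count was 11 and without unstimulated 2 it was 12, and without Dex 2 it was 27. Leaving out 1 array takes its whole pair out of this contrast, so the 2 arrays of a pair are not separate checks. Among the genes outside the list, Irf8 and Ptpn22 each lost the call when any of 8 arrays was left out, Galc with 6 arrays and Tnfrsf18 with 4, at adjusted p up to 0.13, 0.068, 0.0751 and 0.0751. The other 5 kept it whichever of the 12 arrays was left out. Of the listed targets, Gpr65 lost it with 10 arrays, Gadd45a and Nfkbia with 8, and Dusp1 and Fkbp5 with 6 (adjusted p up to 0.226).

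Some genes higher in set 1 had a small mean Dex difference in number 2, with a wide spread in several of them. Of the 134 called genes outside the list, 69 had a Dex difference in number 2 that was under 0.5 log2 or of opposite sign, 29 of them higher in set 1 and 40 lower, where 96.6% of all genes met the same rule. That Dex difference contains the signals of set 2, so the count is a description. Raly, an RNA-binding protein of the hnRNP family, was at 250, 234 and 153 in set 1 and 112, 57.1 and 91.3 in set 2, a difference of 1.16 (SE 0.17, adjusted p = 0.00305), with 0.43 ± 0.19 (SD, n = 3) for Dex in number 2. Stk17b, an apoptosis-linked kinase of T cells, had 276, 583 and 465 against 153, 287 and 217, a difference of 0.94 (SE 0.10, adjusted p = 0.000364). Its sets overlapped in level, since the IL-9 arrays were the highest of each, while each pair had the same direction. Nusap1, a spindle protein, differed by 0.89, Mphosph8, a reader of repressive chromatin, by 0.87, the mitochondrially encoded respiratory chain gene ND5 by 1.07 and Eml5, of the microtubule-associated EML family, by 0.88. Of 2 probe sets of Nusap1 and 3 of Eml5 1 each was called, the lowest at 0.18 and 0.15. Dex minus no Dex in number 2 was 0.44 ± 0.33 for Stk17b, 0.25 ± 0.59 for Nusap1 and 0.46 ± 0.67 for Mphosph8 (SD, n = 3). For ND5 it was 0.09 ± 0.68 and for Eml5 0.26 ± 0.62. In each of these genes Dex 2 was the lowest Dex array numbered 2. The number difference in the Dex arrays was 0.53 for Raly, 0.51 for Stk17b, 0.65 for Nusap1, 0.28 for Mphosph8, 0.36 for ND5 and 0.52 for Eml5, none of them called. Without the Dex pair it was 0.47, 0.39, 0.45, -0.10, 0.20 and 0.27, so that this probe set of Mphosph8 turned in sign and ND5 and Eml5 were smaller. Another called probe set of Mphosph8 kept its sign, with 0.72 without Dex, 0.79 in the Dex arrays and 0.44 without the Dex pair. One probe set of the nucleoside diphosphate kinase gene Nme1, singled out after its values were seen and not the one that represents the gene, differed by 1.69 without Dex and by 1.27 in the Dex arrays. The call of Eml5 was lost without the CCL1 pair (0.59, adjusted p = 0.147). The suffix of the Nme1 probe set marks it as open to cross-hybridization, so it is uncertain which gene it reports.

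Nr3c1, the glucocorticoid receptor gene itself, was among the genes higher in set 1. Its signals were 228, 249 and 283 in set 1 and 156, 132 and 112 in set 2, a difference of 0.86 log2 (SE 0.13, adjusted p = 0.00466), and the sets did not overlap. Of its 3 probe sets 2 were called and all 3 had the same sign, from 0.48 to 0.86. A second probe set of Nr3c1 was the last called higher, at an adjusted p of 0.0498, just inside the threshold with Tgfb1 (-0.52, adjusted p = 0.04998), while Gnai2 (-0.48, adjusted p = 0.0501) and Irf4 (-0.83, adjusted p = 0.0501) lay just outside. In the Dex arrays Nr3c1 was at 314, 214 and 262 in number 1 and 118, 245 and 195 in number 2, where Dex 2 is the array that stands low. The number difference there was 0.51, and 0.11 without the Dex pair. For the second called probe set, with 0.81 without Dex, it was 0.86 there and 0.63 without the Dex pair. The call of the probe set that represents Nr3c1 was lost with no filter, with no intensity trend and in the model of all 12 arrays (adjusted p up to 0.11).

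The genes lower in set 1 formed 58 of the called genes, and Stc1 had the largest difference among them. Stc1, the gene of the secreted glycoprotein stanniocalcin 1, was at 46.0, 26.2 and 20.5 in set 1 and 137, 140 and 95.7 in set 2, a difference of -1.60 log2 (SE 0.15, adjusted p = 0.000108). Its Dex arrays, at 44.7, 22.3 and 16.1 in number 1 and 39.7, 30.4 and 39.8 in number 2, all lay below set 2. Gadd45g, a stress-induced growth arrest gene, was at 43.0, 161 and 84.1 against 198, 221 and 175, a difference of -1.07 (SE 0.20, adjusted p = 0.0156). The unstimulated pair differed most, and the highest array of set 1, IL-9 1, lay just below the lowest of set 2. Gch1, the first enzyme of tetrahydrobiopterin synthesis, was at 77.1, 93.3 and 113 against 177, 191 and 211 (-0.93, adjusted p = 0.000844), again with no overlap. The nuclear long non-coding RNA Malat1 was at 62.5, 93.9 and 52.0 against 200, 133 and 128, which is 1.99-fold lower in set 1 on the scale of signal + 16 (adjusted p = 0.00825), and 2 of its 5 probe sets were called. Its Dex arrays ran from 45.5 to 145. The number difference of Malat1 there was -0.02, and -0.72 without the Dex pair, which alone had 1.39. Its call between the sets was lost with no filter, with no intensity trend and in the model of all 12 arrays (adjusted p in limma up to 0.247).

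Further falls named by the rule were spread over several functions. Phldb1, a pleckstrin homology domain protein, differed by -0.98, although its second probe set had 0.19. Polr3g, a subunit of RNA polymerase III, differed by -0.81, Phlda1, a growth factor-induced protein, by -0.81, Rnf19b, a ubiquitin ligase of lymphocytes, by -0.80, Cdkn1a, the cell cycle inhibitor p21, by -0.79, Plekha3, a phosphoinositide-binding Golgi protein, by -0.77, and Clec4e, the C-type lectin Mincle, by -0.77. Both probe sets of Cdkn1a were called. Clec4e had 10.8 in unstimulated 1 against 26.1 in unstimulated 2, and its sets overlapped since the CCL1 array was the highest of each. Without the CCL1 pair Polr3g (-0.58, adjusted p = 0.0953), Phlda1 (-0.70) and Clec4e (-0.74) lost the call, and without the IL-9 pair Rnf19b (-0.63, adjusted p = 0.147), Phlda1 (-0.71) and Clec4e (-0.74) did. In the Dex arrays number 1 minus number 2 was 0.07 for Polr3g, -0.12 for Rnf19b, -0.22 for Cdkn1a, 0.11 for Plekha3 and 0.06 for Clec4e. Without the Dex pair it was -0.09, 0.01, -0.03, 0.15 and 0.13, with the sign of Polr3g and Rnf19b turned. The second probe set of Cdkn1a had -0.77 without Dex, -0.76 in the Dex arrays and -0.73 without the Dex pair. Phlda1 had -0.35 in the Dex arrays and -0.40 without the Dex pair, and Phldb1 had -0.09 and -0.08. No gene that was lower in set 1 had a called difference between the number effects; for Stc1 it was -1.28 (SE 0.27, adjusted p = 0.116) and for Gadd45g -1.28 (SE 0.30, adjusted p = 0.193).

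Some falls named by the rule kept at least 50% of their size in the Dex arrays, Kdm5c, Cbl, Gclm and Cldnd1 among them. Of all 102 probe sets called lower 40 did so, against 43.1% of all probe sets. Kdm5c encodes an X-linked demethylase of histone H3 lysine 4. It was at 31.5, 27.8 and 22.0 in set 1 and 123, 98.7 and 74.1 in set 2, a difference of -1.39 log2 (SE 0.15, adjusted p = 0.000226). With Dex it was at 34.2, 29.9 and 17.6 in number 1 and 104, 114 and 87.2 in number 2, a difference of -1.46 (SE 0.16, adjusted p = 0.0754), the smallest adjusted p of that comparison. The 6 arrays numbered 1 thus all lay below the 6 numbered 2, and Dex minus no Dex was -0.01 ± 0.15 in number 1 and 0.05 ± 0.23 in number 2 (SD, n = 3). Of the 2 probe sets of Kdm5c 1 was called; the other had -0.16. Cbl, a ubiquitin ligase that restrains antigen receptor signalling, was at 134, 112 and 99.7 against 225, 213 and 216 (-0.84, SE 0.11, adjusted p = 0.00159), and both of its probe sets were called. With Dex, Cbl was at 144, 90.6 and 37.0 against 176, 186 and 174, a difference of -1.01 (SE 0.25, adjusted p = 0.248). Its spread was wide in number 1, where Dex+CCL1 1 was the lowest array.

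Gclm, the modifier subunit of the enzyme that starts glutathione synthesis, was at 171, 211 and 152 in set 1 and 293, 370 and 292 in set 2 (-0.79, SE 0.10, adjusted p = 0.00126), with -0.49 in the Dex arrays. Cldnd1, a claudin domain protein, was at 131, 119 and 119 against 230, 231 and 245 (-0.86, SE 0.11, adjusted p = 0.00107), with -0.50 in the Dex arrays. In both genes the sets did not overlap and all 3 Dex pairs had the same sign, though neither was called in the Dex arrays (adjusted p = 0.248 for Gclm and 0.267 for Cldnd1). Of 3 probe sets of Cldnd1 1 was called, and the others ranged up to -0.03. The difference between the number effects was 0.06 for Kdm5c, 0.17 for Cbl, -0.30 for Gclm and -0.35 for Cldnd1, with adjusted p from 0.578 to 0.947.

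**Figure D3:**
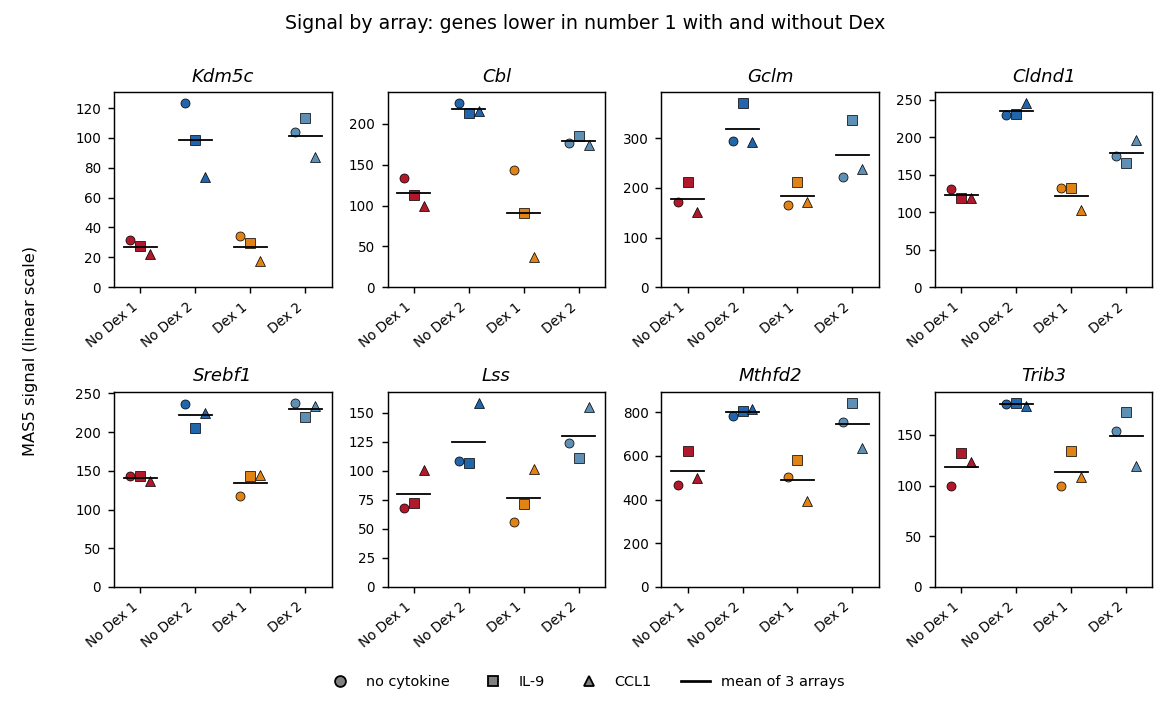
MAS5 signal (linear axes that start at 0) of 8 genes called lower in number 1 without Dex, shown for the arrays without Dex and the Dex arrays by number. Each symbol is 1 array and each line the mean of 3 arrays; Kdm5c lies at 17.6 to 34.2 in all arrays numbered 1 and at 74.1 to 123 in all numbered 2, and no gene shown was called in the Dex arrays.

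Genes of cholesterol and fatty acid synthesis had 5 calls, all lower in set 1. These genes are driven by the SREBP transcription factors, which are released when sterols run low. Of 18 members above the filter 5 were called lower (27.8%, against 0.77% of all genes) and 0 higher (13 and 0 at an unadjusted p under 0.05, against 8.03% and 6.03% of all genes), and 17 had a difference below 0, as 53.6% of all genes did. The median was -0.44 against -0.016 over all genes, and by pair it was -0.58 in the unstimulated, -0.39 in the IL-9 and -0.31 in the CCL1 pair. Srebf1, which encodes the factor SREBP-1, was at 143, 143 and 136 in set 1 and 236, 205 and 225 in set 2 (-0.60, SE 0.11, adjusted p = 0.0122). Lss, the lanosterol synthase, was at 68.0, 71.9 and 101 against 108, 107 and 158 (-0.54, adjusted p = 0.0398), and its second probe set had 0.15. Cyp51, the lanosterol demethylase, was at 323, 349 and 489 against 515, 493 and 692 (-0.54, adjusted p = 0.0153). Each of these differed in the same direction in 3 of 3 pairs. Of the 3 probe sets of Cyp51 2 were called, the weakest being at -0.08.

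Fasn, the fatty acid synthase, was at 351, 346 and 405 against 491, 525 and 559 (-0.50, adjusted p = 0.0226). Hmgcs1, which makes the precursor of mevalonate, was at 448, 448 and 513 against 724, 574 and 704 (-0.49, adjusted p = 0.0378). Of the uncalled members, the differences were -0.47 for Fdps, the farnesyl diphosphate synthase, -0.33 for Scd2, a fatty acid desaturase, and -0.30 for Sqle, the squalene epoxidase; Fdps was called without the CCL1 pair (-0.62, adjusted p = 0.0172). Among the Dex arrays 15 of the 18 were below 0 and the median was -0.23 (-0.20 without the Dex pair), against -0.017 over all genes. Srebf1 had -0.71 and Lss -0.68 there, and Fasn -0.21, none of them called; without the Dex pair these were -0.60, -0.54 and -0.07. The 5 calls lay near the threshold: under 13 alternatives Srebf1 and Cyp51 each lost the call in 4, Fasn and Hmgcs1 in 7 and Lss in 8, while every one stayed below 0. Left-out pairs were among these: without the CCL1 pair Srebf1 (adjusted p = 0.0584), Fasn (0.0524), Hmgcs1 (0.059) and Lss (0.143) were not called, and without the IL-9 pair Fasn (0.143), Hmgcs1 (0.0616) and Lss (0.0885) were not.

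The promoter of Hmgcs1 is shown because its window holds a sterol regulatory element, TCACCCCA in capitals, 129 bases before the start. It is from RefSeq, GRCm38.p6, chr13:119690101-119690350, plus strand.

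Hmgcs1: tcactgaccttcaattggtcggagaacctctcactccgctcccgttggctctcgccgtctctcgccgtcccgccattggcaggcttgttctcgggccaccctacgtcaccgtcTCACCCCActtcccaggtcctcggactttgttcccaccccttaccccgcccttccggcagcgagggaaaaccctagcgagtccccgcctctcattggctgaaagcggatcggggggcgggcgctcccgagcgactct

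On either strand these letters occurred in 1.54% of all genes with a promoter in the table, in 2 of 87 genes called higher (2.3%) and in 2 of 72 called lower (2.78%).

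Genes of the amino acid response, which the factor ATF4 activates when amino acids are short or proteins misfold, had 3 calls, again all lower in set 1. Of 19 members above the filter 3 were called lower (15.8%, against 0.77% of all genes) and 0 higher. At an unadjusted p under 0.05 there were 7 lower and 0 higher, against 8.03% and 6.03% of all genes. Of the 19, 16 were below 0, as 53.6% of all genes were, and the median was -0.23. Mthfd2, the mitochondrial folate enzyme, was at 468, 624 and 498 in set 1 and 781, 804 and 814 in set 2 (-0.59, SE 0.11, adjusted p = 0.0156). With Dex it was at 501, 583 and 392 against 757, 841 and 638, again -0.59 (SE 0.12, adjusted p = 0.248). Of the 2 probe sets of Mthfd2 1 was called, and the other had -0.21 without Dex. Chac1, which degrades glutathione, was at 135, 141 and 157 against 257, 176 and 246 (-0.58, adjusted p = 0.0306). Trib3, a pseudokinase that feeds back on ATF4, was at 99.5, 132 and 124 against 181, 181 and 178 (-0.55, adjusted p = 0.0306). For each of the 3 the sets did not overlap. Atf4 itself had -0.31 (adjusted p = 0.216) and the serine synthesis gene Psat1 -0.21 (adjusted p = 0.481). Among the Dex arrays 18 of the 19 were below 0, with a median of -0.26 (-0.21 without the Dex pair). Chac1 and Trib3 each lost the call in 6 of 13 alternatives and Mthfd2 in 2; among these, Chac1 (adjusted p = 0.0731) and Trib3 (0.059) were not called without the CCL1 pair.

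The promoter of Chac1 is shown because it holds an amino acid response element, TGATGCAA, read here on the opposite strand as TTGCATCA in capitals, 185 bases before the start. It is from RefSeq, GRCm38.p6, chr2:119350992-119351241, plus strand.

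Chac1: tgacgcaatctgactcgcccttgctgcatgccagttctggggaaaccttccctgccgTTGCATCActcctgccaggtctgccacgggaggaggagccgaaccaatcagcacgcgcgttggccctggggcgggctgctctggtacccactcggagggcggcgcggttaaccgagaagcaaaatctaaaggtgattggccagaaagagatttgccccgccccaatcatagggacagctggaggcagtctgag

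These letters occurred on either strand in 0.918% of all genes with a promoter in the table, in 1 of 87 called higher (1.15%) and in 2 of 72 called lower (2.78%). The other motifs searched on both strands were the AP-1 site TGANTCA, held by 7.82% of all genes, 9.2% of those called higher and 4.17% of those called lower, the cyclic AMP response element TGACGTCA, with 1.77%, 1.15% and 0%, and the E-box CACGTG, with 6.86%, 10.3% and 11.1%. Of the 192 genes with a called probe set 159 had a promoter in the table. The windows hold 250 bases each, and a match is a description of letters.

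Genes of the oxidative stress response had 14 members above the filter, of which 2 were called lower (14.3%, against 0.77% of all genes) and 0 higher, with 6 lower and 1 higher at an unadjusted p under 0.05 (8.03% and 6.03% of all genes). Their median was -0.24, and -0.21 in the Dex arrays (-0.08 without the Dex pair). Besides Gclm the called member was Hmox1, heme oxygenase 1, at 60.7, 71.2 and 65.0 in set 1 and 98.0, 146 and 108 in set 2 (-0.69, SE 0.13, adjusted p = 0.0156). Its Dex arrays ran from 54.9 to 92.7, a number difference of -0.09 (0.08 without the Dex pair), and without the IL-9 pair its call was lost (-0.59, adjusted p = 0.121). Txnrd1, the thioredoxin reductase, had -0.24 and Sqstm1, an autophagy receptor, -0.28, while the metallothionein gene Mt1 went the other way with 0.47 (adjusted p = 0.163). None of these 3 was called, but Mt1 was without the CCL1 pair (0.54, adjusted p = 0.015) and after median centring (0.52).

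Receptor and surface genes of T cells had 1 call in each direction in each list below. Each call was 8.33% of the receptor signalling list or 10% of the chemokine and adhesion list. Over all genes 1.18% were called higher and 0.77% lower. Among 12 genes of proximal T cell receptor signalling, Ptpn22 was called higher and Cd28, the costimulatory receptor, lower: 28.2, 36.5 and 26.1 in set 1 against 55.6, 65.8 and 59.2 in set 2 (-0.72, SE 0.15, adjusted p = 0.0274). The kinase Zap70 had 0.18 and the adaptor Lat -0.29, neither of them called. Among 10 chemokine and adhesion receptors, Ccr8 was called higher and Cd44, the hyaluronan receptor, lower, at 306, 341 and 412 against 463, 560 and 715 (-0.68, SE 0.10, adjusted p = 0.00343). Cxcr4, the receptor of CXCL12, had 0.51 (adjusted p = 0.0561) and Ccr9, the receptor of CCL25, -0.22. Cd44 and Cd28 did not overlap between the sets, but Cd28 was not called without the IL-9 pair (adjusted p = 0.0812) or the CCL1 pair (0.075). A second probe set, not called, had -0.29 for Cd28 and -0.42 for Cd44. Lat was called without the unstimulated pair (-0.56), and Cxcr4 without that pair (0.60) or the IL-9 pair (0.57). With Dex, Cd44 had a number difference of -0.15 and Cd28 of 0.19; without the Dex pair, which alone had 0.77 for Cd28, they were -0.27 and -0.10.

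The 3 lists of cell cycle genes held 3 calls, which is not a count of all such genes. Called outside these lists were, among others, the spindle gene Nusap1 (0.89) and Cdc25a (-0.55, adjusted p in limma 0.0328). Of 13 genes of the G1 phase 2 were called lower (15.4%, against 0.77% of all genes): Cdkn1a, and Ccnd3, the gene of cyclin D3, at 231, 229 and 232 in set 1 against 328, 372 and 365 in set 2 (-0.59, SE 0.10, adjusted p = 0.00925). Ccnd2, its paralog, had -0.30 (adjusted p = 0.196). Of 19 mitotic genes 1 was called higher (5.26%, against 1.18% of all genes), the spindle motor Kif11, at 228, 252 and 266 against 184, 173 and 144 (0.53, SE 0.12, adjusted p = 0.041), a call lost in 8 of 13 alternatives, among them without the IL-9 pair (adjusted p = 0.0652) or the CCL1 pair (0.258). Kif11 had 0.61 in the Dex arrays, and of its 3 probe sets 1 was called, the lowest being at 0.10 without Dex. The median of the mitotic list was 0.15. For DNA replication limma called 0 of 20 genes; at an unadjusted p under 0.05 there were 3 (15%, against 14.1% of all genes).

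The remaining lists held at most 2 calls each, where 1.18% of all genes were called higher and 0.77% lower. Jund, a subunit of AP-1, was the 1 called gene of 10 immediate-early genes, at 75.8, 76.2 and 46.0 against 123, 137 and 105 (-0.76, SE 0.13, adjusted p = 0.00897); Ier2 of the same list had -0.31. Slc2a3, a glucose transporter, was the 1 called gene of 20 of glycolysis and hypoxia (-0.50, adjusted p = 0.0446), a call lost in 10 of 13 alternatives, among them without each of the 3 pairs in turn (adjusted p = 0.0526 to 0.0876). Of 4 probe sets of Slc2a3 1 was called and 2 were below 0. Ldha, the lactate dehydrogenase, had 0.36, and was called without the CCL1 pair (0.54). Of 14 genes linked to quiescence, Tsc22d3 and Txnip were called, both also glucocorticoid targets, while Foxp1 (0.44) and Tob1 (0.58) were not; Tob1 was without the IL-9 pair (0.89). Calls were absent from 4 further lists in limma, with 0 each: 12 heat shock genes (1 at an unadjusted p under 0.05), 16 genes of endoplasmic reticulum chaperones (1), 20 of ribosome biogenesis (5) and 14 circadian clock genes (6), or 8.33%, 6.25%, 25% and 42.9% against 14.1% of all genes. Of 11 p53 targets Trp53inp1 was called higher and Cdkn1a lower, and of 9 genes of the tumour necrosis factor superfamily Tnfrsf18 and Tnfsf14 were called higher. Single calls were Irf8 among 13 interferon genes, Zfp36l2 among 8 mRNA decay genes, Bcl2l11 among 8 of the BCL2 family, Nfkbia among 8 of the NF-kB pathway, Rgs2 among 5 cyclic AMP targets and, lower, Phlda1 among 6 ERK feedback genes, where Etv5 had 0.37 and was not called. Hspa5, the main chaperone of the endoplasmic reticulum, had 0.20, and Ncl, the nucleolar protein nucleolin, had 0.20.

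**Figure D4:**
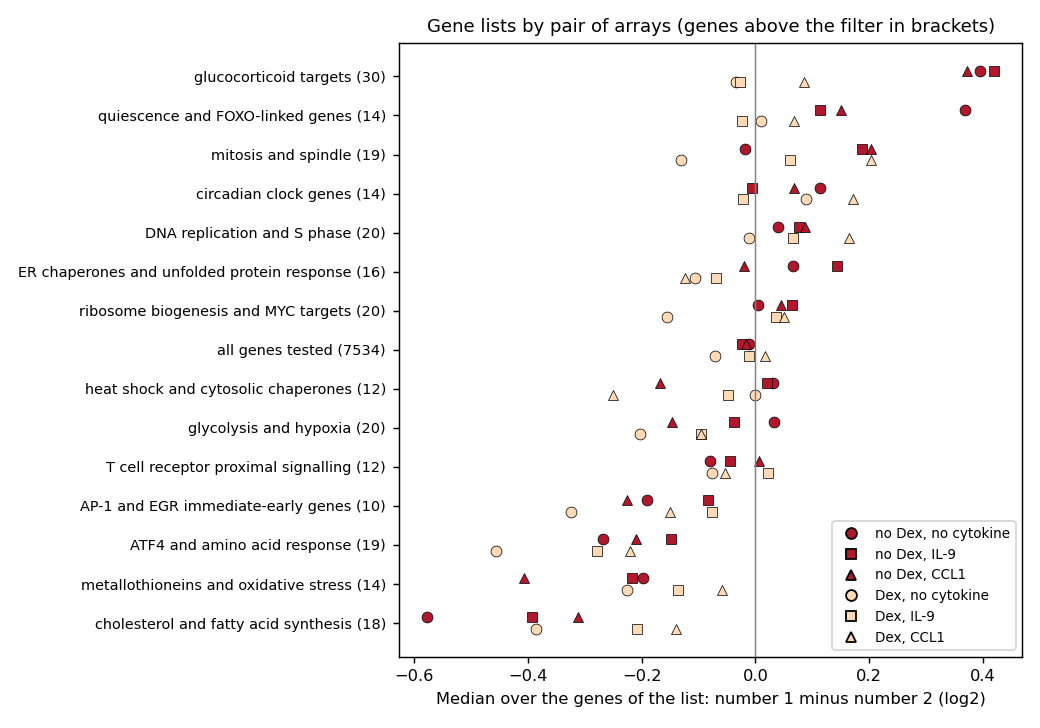
Median log2 difference, number 1 minus number 2, over the genes of each list above the filter (their number in brackets), for each pair of arrays. Red symbols are the 3 pairs without Dex and pale symbols the 3 Dex pairs (circle no cytokine, square IL-9, triangle CCL1); the glucocorticoid list is at 0.37 to 0.42 in the pairs without Dex and at -0.035 to 0.086 in the Dex pairs, and the cholesterol list is below 0 in all 6.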

How the data were processed

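Affymetrix arrays measured total RNA of BW5147. The authors deposited MAS5 signal intensity on a linear scale, per the submitters' processing notes and the values; each array's mean after trimming 2% at each end was near 100 (100.04 to 100.05), a scaling under which a shift of all genes in 1 direction cannot be seen. The sources used here give no MAS5 version and no further step. The 2 tables (11 arrays and 1) were joined by probe set.

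After removal of 64 controls, 22626 probe sets were transformed as log2(signal + 16), which understates folds of low signals, and 13575 with a mean above the 40th percentile over the 6 arrays without Dex (a signal of 6.50) were kept. Gene symbols came from the platform annotation, 20393 of 22690 probe sets having 1 symbol, 691 several and 1606 none; 20364 gene identifiers matched the RefSeq table, which changed 0 symbols. A gene was represented by its probe set with the highest mean (7534 genes).

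Sets were tested in limma 3.58.1 under R 4.3.3, in a model of number and, as a block, cytokine, with moderation that follows the intensity, p-values being adjusted by Benjamini-Hochberg; it has 2 residual and 10.4 prior degrees of freedom. The Dex arrays were fitted apart (7.44 prior degrees of freedom), and the difference between the number effects in 1 model of 12 arrays (4 residual, 7.92 prior). P-values are two-sided. On simulated data with 200 changed probe sets, the comparison without Dex recovered 58% of changes of 1 log2 and 97% of 2 log2 with 2.52% false calls. The difference between number effects recovered 31% and 93% with 3.12% false calls. The simulated noise was normal and independent between arrays. It held no further effect shared by arrays of 1 number and no outlying array, so these rates do not cover such effects.

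Named were the 15 largest rises and falls outside the glucocorticoid list, that list's called members and the receptor gene, called members of the other lists with up to 4 uncalled ones, and up to 10 genes each for a small Dex difference in number 2 and for the difference between number effects. The comparison, members and gene lists were chosen with earlier results of these data known. Alternatives tried were median centring, quantile normalization, pseudocounts of 1 and 64, a filter at the 60th percentile or none, no trend, 1 probe set per gene, no cytokine block, 1 model of 12 arrays, and left-out pairs or arrays. Values of the Dex arrays without the Dex pair were added after the data were seen.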

Additional observations from a re-analysis of the deposited data

Results flagged for a closer look

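The number difference depended on Dex for 18 genes, by the test of the difference between the number effects (no Dex minus Dex, log2, adjusted p under 0.05 in limma). In the glucocorticoid list these were Akap12 at 2.76, Ggct at 2.47, Tsc22d3 at 1.85, Bcl2l11 at 1.84, Gpr65 at 1.39, Dusp1 at 1.37, Gadd45a at 1.18, Fkbp5 at 1.14 and Nfkbia at 1.07. Outside it they were Zfp36l2 at 1.70, Irf8 at 1.57, Tpst2 at 1.46, Ccr8 at 1.46, Tnfrsf18 at 1.45, Galc at 1.42, Stat4 at 1.37, Cytip at 1.34 and Ptpn22 at 1.25. Gpr65 lay closest to the threshold (adjusted p = 0.0497), and its number difference in the Dex arrays was 0.75, with Dex 2 the lowest of the Dex arrays at 182. Bcl2l11 and Tpst2 had number differences of -0.42 and -0.30 in the Dex arrays, where Dex 2 was the highest at 673 and 276. Of the 18 genes, 9 kept the call under every alternative run, left-out arrays included.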

How the results depend on the processing

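No paired analysis was possible because arrays of equal number cannot form pairs where the number is itself what was compared; the pairing used was that by cytokine, as the block, and leaving out 1 array of a pair leaves out the pair. The 253 calls without Dex became 84 with no filter, 90 with no intensity trend, 136 with no cytokine block and 162 in 1 model over all 12 arrays, and they ranged from 222 to 772 over the left-out pairs; other settings gave 189 to 267. The 84 and the 90 were all among the 253. The 0 calls in the Dex arrays became 22 with median centring, 1 with 1 probe set per gene and 2 in the model over all 12 arrays, and ranged from 0 to 199 over the left-out pairs. The 22 calls of the difference between number effects ranged from 11 to 27 over the left-out arrays and from 15 to 33 otherwise. The causes were not tested. Median centring moved set 1 against set 2 by 0.043 log2. Of 66 called genes that the text names, 30 kept the call under every alternative run, among the falls Cdkn1a, Cldnd1, Gch1, Gclm, Kdm5c and Stc1; 31 lost it with no filter and 30 with no trend, and none changed direction. Signals near or below the filter of 6.50 limit what low genes show.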
